A study of Mus musculus with 4 samples.

Results

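The genes described here are 9 mouse genes of the presynaptic terminal: the vesicle fusion genes Snap25, Stx1a and Vamp2, the calcium sensor gene Syt1, the vesicle membrane gene Syp, the synapsins Syn1 and Syn2, and the synucleins Sncb and Sncg. They are represented by all probe sets whose platform annotation gives 1 gene symbol, that of one of these genes, which makes 21 of 45101 probe sets and 9 of 18193 genes with a probe set of their own. The probe sets were picked by gene name, but the genes were chosen with earlier results of these data known. The tissue, labelled retina, came from transgenic mice, which express the secreted glycoprotein myocilin in their aqueous humor, and from control mice. It was measured on 4 one-colour Affymetrix oligonucleotide arrays: 2 myocilin transgenic arrays, taken as 2 samples, and 2 control arrays, which the labels name as technical replicates and which count as 1 sample. Strain, age, the promoter of the transgene, pooling of animals and whether the transgenic arrays came from separate animals are not given by the labels, so each p-value rests on a spread between arrays that may be technical.

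At a presynaptic terminal, neurotransmitter is stored in vesicles that fuse with the plasma membrane when calcium enters. Vamp2 on the vesicle and Snap25 and Stx1a on the plasma membrane are SNARE proteins, which zip together and pull the membranes into contact. Syt1 senses the calcium, Syp is an abundant protein of the vesicle membrane, and the synapsins tether vesicles in a reserve pool. Synucleins are small soluble proteins of nerve terminals. Sncg is also known from retinal ganglion cells and from fat. In a retina these genes serve synapses between neurons, though not each gene at every type of synapse. Outside it they are active in nerve fibres and neuroendocrine cells.

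Promoters are shown for Sncb, the gene with the widest difference between the groups, and for Syn1, whose promoter held a pair of motifs that were rare among all promoters. Each sequence is RefSeq's, build GRCm38.p6, from 250 bases before to 50 bases after the gene's start, 5′ to 3′ on the gene's strand. Sncb lies on the minus strand at chr13:54766546-54766845 and Syn1 on the minus strand at chrX:20920869-20921168. Capitals mark matches to the GC box GGGCGG, the cyclic AMP response element TGACGTCA and the left part of the RE1 element, TTCAGCACC, each sought on both strands.
Sncb: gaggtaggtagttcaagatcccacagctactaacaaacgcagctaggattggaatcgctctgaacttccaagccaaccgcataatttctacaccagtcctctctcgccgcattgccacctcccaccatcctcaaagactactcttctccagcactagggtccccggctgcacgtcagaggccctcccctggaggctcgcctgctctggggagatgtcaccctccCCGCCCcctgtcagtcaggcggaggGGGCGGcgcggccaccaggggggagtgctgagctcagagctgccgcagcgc
Syn1: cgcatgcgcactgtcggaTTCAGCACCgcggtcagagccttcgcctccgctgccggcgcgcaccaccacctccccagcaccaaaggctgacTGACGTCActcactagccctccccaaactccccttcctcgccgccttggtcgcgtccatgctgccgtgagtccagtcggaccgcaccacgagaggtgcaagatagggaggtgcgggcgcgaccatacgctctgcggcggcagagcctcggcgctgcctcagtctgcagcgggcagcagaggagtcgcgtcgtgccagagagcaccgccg
The RE1 element is the site through which the repressor REST is known to silence neuronal genes in other cells. Its left part begins at base 19 of the Syn1 sequence and TGACGTCA at base 92. These letters were found in 0.371% and 1.79% of 32851 promoters. RefSeq's table gave 9 promoters for 7 of the 9 genes, Snap25 and Vamp2 having none in it, and Syn1 was the one with either of these motifs. GGGCGG was in 6 of the 9, against 35.7% of all promoters, and TATAAA was in 0 of the 9, against 13.6% of all. A match is a description of letters in this window and was not set against the signals.

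Signals of the synaptic genes were low on all arrays, whose 2% trimmed mean was 150 in each case. Levels are not ranked between genes, because brightness also depends on the probe set. Of the 21 probe sets, 2 had a mean signal above 150, the brightest of Snap25 and of Vamp2, and signals over all of them ran from 0.349 to 273. A filter on mean signal, at about 30, left 11 of the 21 for testing, and these belong to 8 of the 9 genes. Some passed through 1 group: Syn1 through the control arrays, and the brightest Stx1a probe set and 1 of Syt1, with a mean of 34.2 in transgenic and 27.3 in control, through the transgenic arrays. Photoreceptor markers were also dim, while inner retinal neuron markers were mixed. None of the 17 rod and cone genes with a probe set had a mean signal above 150 (0 of 17). Their median was 34.1, and the brightest was Sag at a mean of 134. Prph2, a structural protein of photoreceptor outer segments, was among the dimmest. It stood at 0.994 and 2.70 on the transgenic arrays and at 7.80 and 13.2 on the control arrays. Of the 19 inner retinal neuron genes, 6 exceeded 150, among them Trpm1, Tfap2b, Pvalb and Tfap2a. The median of the 19 was 70.7, with Pcp2 at a mean of 116, Gad1 at 89.3 and Cabp5 at 26.2. Whether these bright signals, Trpm1 and Pvalb included, came from inner retinal neurons or from other cells in the extract was not tested. All 10 corneal and surface epithelium genes, all 9 pigmented layer genes and 10 of 12 skeletal muscle genes exceeded 150. The arrays are therefore described by their label and not as pure retina.

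None of the 11 tested probe sets passed the test, and adjusted p in limma ran from 0.324 to 0.995. The test was limma on log2(signal + 16), with Benjamini-Hochberg adjustment over all 27022 probe sets tested and a threshold of 0.05. Among all probe sets tested, 0.0555% were called higher in the transgenic samples and 0.0222% lower. At an unadjusted p under 0.05, 3 of the 11 were lower and none higher, namely the brightest probe sets of Snap25, Syt1 and Sncb, against 2.92% lower and 4.14% higher of all probe sets tested. The labels' 2 transgenic samples and 1 control sample leave 1 residual degree of freedom.

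**Figure D1:**
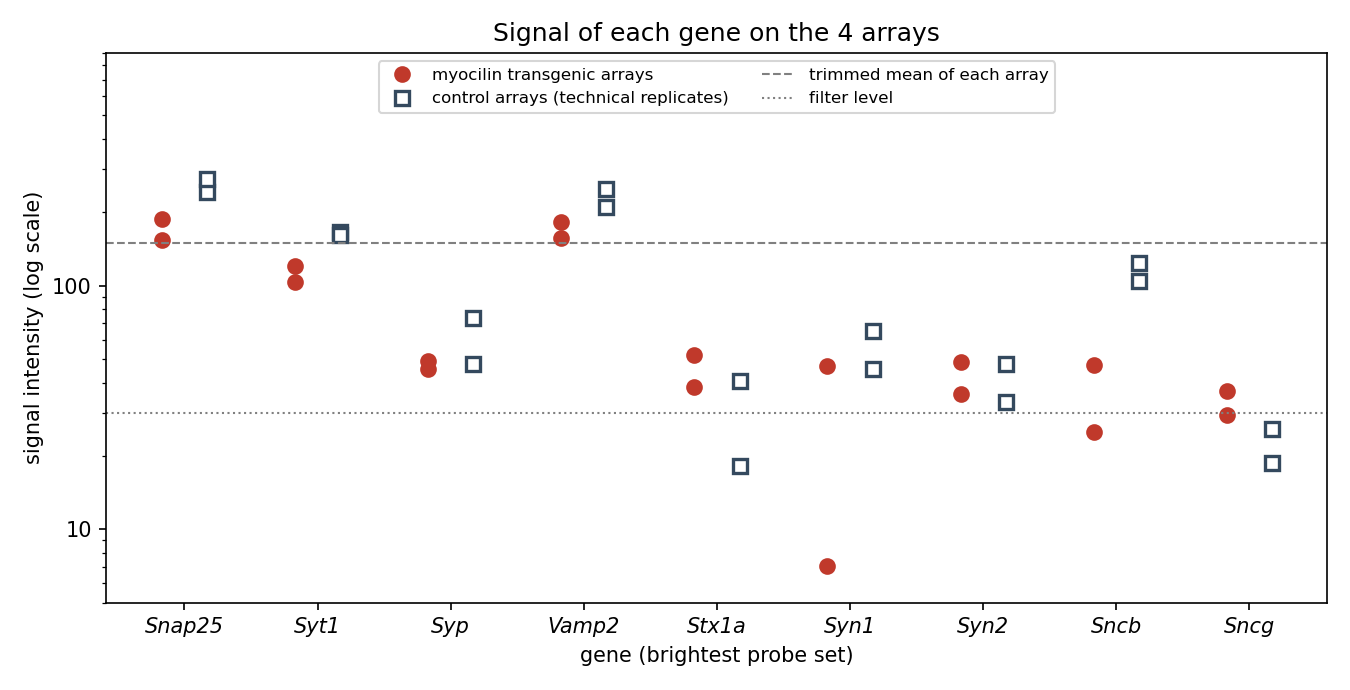
Signal intensity (log axis) of the brightest probe set of each of the 9 genes, with filled circles for the 2 myocilin transgenic arrays and open squares for the 2 control arrays. The transgenic arrays lie below both control arrays for Snap25, Syt1, Vamp2 and Sncb, and above both for Sncg.

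Among the SNARE genes, Snap25 and Vamp2 had lower signals on both transgenic arrays, while Stx1a did not. Snap25 had signals of 188 and 153 on the transgenic arrays, against 243 and 273 on the control arrays. The groups did not overlap, and the gap between the transgenic arrays was 0.27 on the log2 scale, smaller than the difference between the groups. That difference was −0.56 ± 0.19 (log2, SE; transgenic minus control; limma adjusted p = 0.531). In linear terms the mean signal of Snap25 was 171 ± 24.7 in transgenic samples (SD, n = 2) and 258 in control, a ratio of 0.662. A second, dim probe set of Snap25, under the filter, was at 20.9 and 8.995 in transgenic and at 21.7 and 34.1 in control, also lower on both transgenic arrays. As these are tissue extracts, fewer cells of a type and less RNA per cell cannot be told apart.

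The brightest Vamp2 probe set had signals of 157 and 182 on the transgenic arrays, against 249 and 210 on the control arrays. It stood at −0.40 ± 0.18 (log2, SE; adjusted p = 0.707), a change wider than the gap of 0.23 between the control arrays. The other Vamp2 probe set differed most within the groups. It was at 32.6 and 68.7 in transgenic and at 69.7 and 48.1 in control, so its arrays overlapped, and its change of −0.21 ± 0.37 was smaller than the gap of 0.80 between the transgenic arrays. Without transgenic replicate 1 this probe set stood at 0.19.

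Stx1a, the syntaxin partner of Snap25 in the fusion complex, had signals of 51.9 and 38.2 on the transgenic arrays, against 40.5 and 18.1 on the control arrays, on its brightest probe set. The groups overlapped. The change of 0.47 ± 0.35 (log2, SE; adjusted p = 0.871) was smaller than the gap of 0.73 between the technical replicates of the control. Its other probe set was under the filter and nearly level, at 29.4 and 21.5 in transgenic and 31.5 and 21.9 in control.

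Syt1, which couples calcium entry to fusion, was lower on both transgenic arrays on 1 of its 4 probe sets, the brightest. That probe set was at 103 and 121 on the transgenic arrays, against 166 and 161 on the control arrays. It stood at −0.49 ± 0.21 (log2, SE; adjusted p = 0.675), and its control arrays differed by only 0.04 on the log2 scale. A second tested probe set of Syt1 was at 70.7 and 81.5 in transgenic and at 79.5 and 88.3 in control, with overlapping arrays and a change of −0.12 ± 0.26. The third tested one, which passed the filter through the transgenic arrays, was higher on both transgenic arrays, at 34.0 and 34.5 in transgenic against 23.3 and 31.3 in control, with a change of 0.22 ± 0.37. The fourth, under the filter, ran from 2.99 to 18.03 in transgenic and from 13.4 to 26.8 in control.

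Syp, the vesicle membrane protein synaptophysin, gave probe sets that went opposite ways. The brightest was at 49.1 and 45.7 on the transgenic arrays, against 47.8 and 73.6 on the control arrays. Its groups overlapped and its change of −0.25 ± 0.30 (log2, SE; adjusted p = 0.941) was within the gap of 0.49 between the control arrays. Without control replicate 2 the change was −0.01, and without control replicate 1 it was −0.50. The dim probe set of Syp was at 25.4 and 24.7 in transgenic, against 22.6 and 6.27 in control, higher on both transgenic arrays.

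The synapsins did not separate the groups. Syn1 was at 7.09 and 46.7 on the transgenic arrays, against 45.6 and 64.8 on the control arrays. Its change of −0.89 ± 0.52 (log2, SE; adjusted p = 0.805) rested on the transgenic array at 7.09. Without that array, transgenic replicate 1, the value was −0.17, and without transgenic replicate 2 it was −1.61. The gap of 1.44 between the transgenic arrays of Syn1 exceeded the change, and adding 1 or 64 to the signals in place of 16 gave −1.49 or −0.42.

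Syn2 had 6 probe sets, of which 1 passed the filter. That one was at 35.9 and 48.6 in transgenic and at 47.7 and 33.3 in control, with a change of 0.05 ± 0.34 (log2, SE; adjusted p = 0.995) and overlapping arrays. Its sign turned to −0.14 without control replicate 2 and to −0.11 without transgenic replicate 2. The other 5 probe sets of Syn2 ran from a change of −0.43 to one of 0.37. One of them was higher on both transgenic arrays, at 24.2 and 39.4 in transgenic against 17.99 and 23.3 in control. Another was lower on both, at 16.995 and 22.7 in transgenic against 26.0 and 39.1 in control. The remaining 3 overlapped, and signals on them ran from 0.349 to 19.1.

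Of the synucleins, Sncb had the largest difference among the 21 probe sets and Sncg went the other way at a low signal. Sncb was at 47.1 and 25.1 on the transgenic arrays, against 104 and 124 on the control arrays. The groups stood far apart, though one transgenic value lay under the filter level of about 30. The mean signal was 36.1 ± 15.6 in transgenic samples (SD, n = 2) and 114 in control, a ratio of 0.317. The change of −1.35 ± 0.34 (log2, SE) did not pass, with a limma adjusted p of 0.324. It was wider than the gap of 0.62 between the transgenic arrays and than that of 0.22 between the control arrays. With either transgenic array alone, Sncb stood at −1.03 or −1.66, and with either control array alone at −1.24 or −1.45. The size depended on the constant added before taking logs, with −1.69 for 1 and −0.83 for 64. A single probe set reports Sncb, so no second one bears on it.

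Sncg was at 36.8 and 29.6 on the transgenic arrays, against 18.6 and 25.7 on the control arrays. Its transgenic values lay above both control values, at a mean of 33.2 ± 5.15 (SD, n = 2) and 22.1 in control, a change of 0.37 on the log2 scale. It lay below the filter and was not tested. Of 6 fat genes with a probe set, 5 had a log2 change above 0, where 51.2% of all genes were below 0, and 0 of the 3 tested passed in limma. Among these 5, Retn at 0.01 and Adipoq at 0.04 were nearly level, and Lep was under the filter at signals of 1.87 to 15.5. Fabp4, a fatty acid carrier of fat cells, was at 314 and 246 in transgenic and 170 and 192 in control, with a change of 0.59 (adjusted p = 0.473), while Adipoq was at 2.71 and 8.02 in transgenic and 8.48 and 1.30 in control. The part of fat in the Sncg signal was not tested. Pou4f1, a transcription factor gene of ganglion cells, was under the filter, at 14.4 and 15.5 in transgenic and 18.7 and 13.4 in control. From the same inner retinal list, Rbpms and Isl1 were lower on both transgenic arrays, at −0.38 and −0.46 (limma adjusted p = 0.766 and 0.850). Pou4f3, also under the filter, was higher on both, at 0.63.

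**Figure D2:**
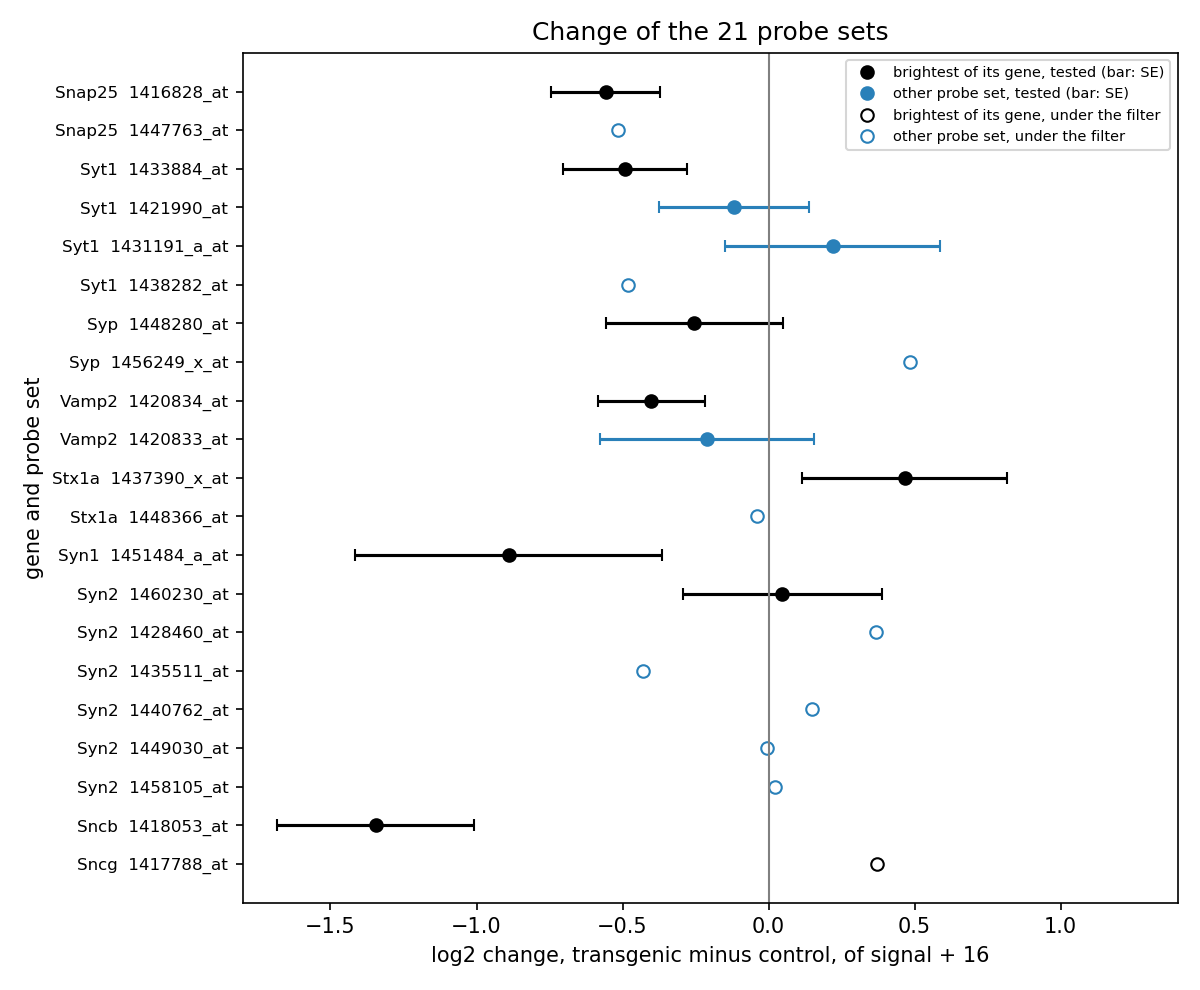
Log2 change (transgenic minus control, of signal + 16) for each of the 21 probe sets, with the SE as a bar where the probe set was tested and an open circle where it fell under the filter. Sncb lies farthest from 0 at −1.35, and the probe sets of Syt1, Syp, Syn2 and Stx1a fall on both sides of 0.

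Over all 21 probe sets, both transgenic arrays were below both control arrays for 6 and above them for 4, and the arrays of 11 overlapped. Of all probe sets without a filter, 20.9% were lower on both transgenic arrays and 19.4% higher, so neither share is a result about these genes. Among the 11 tested, 4 were lower on both and 1, of Syt1, higher, against 23.6% and 21.1% of all probe sets tested. By brightest probe set, 6 of the 9 genes had a log2 change below 0 and 3 above, against 51.2% below 0 for all genes. The median log2 change of the 9 genes was −0.40, against −0.01 over the brightest probe sets of all genes and −0.02 over all probe sets tested. With the mean over all probe sets of a gene, the median of the 9 was −0.22. Set against the control, the median was −0.42 on transgenic array 1 and −0.29 on transgenic array 2. The control arrays themselves differed by a median of −0.16 over these genes (replicate 1 minus replicate 2).

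The arrays within a group lay further apart for these probe sets than for the median probe set. The median log2 gap was 0.27 between the transgenic arrays and 0.27 between the control arrays over the 11 tested probe sets, against 0.17 and 0.16 over all probe sets tested. For 7 of the 11 the change between groups was no larger than the wider of these gaps. The 4 exceptions were the brightest probe sets of Sncb, Snap25, Syt1 and Vamp2, all lower in the transgenic samples. The same share over all probe sets tested was not counted, so this count is not a result about these genes.

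**Figure D3:**
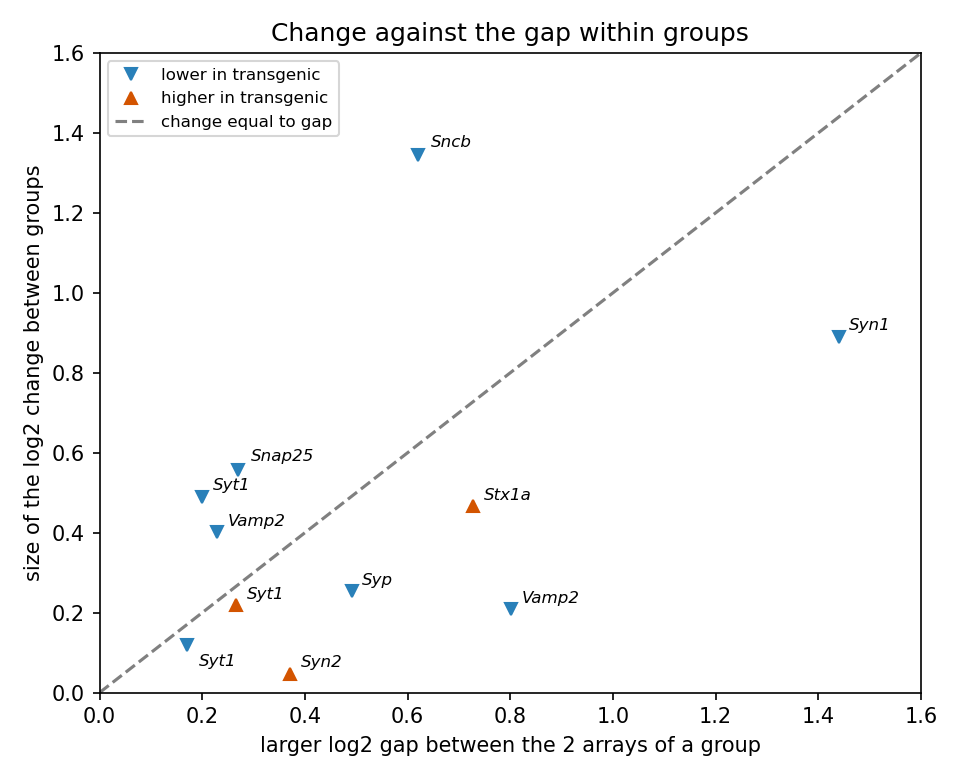
Size of the log2 change between groups against the wider log2 gap between the 2 arrays of a group, for the 11 tested probe sets, with triangles pointing down where transgenic was lower and a dashed line of equality. Probe sets of Sncb, Snap25, Syt1 and Vamp2 lie above the line and the other 7 below it, Syn1 at a gap of 1.44.

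Other genes of vesicle release were spread around 0. Of 43 genes listed, 39 had a probe set and 27 were tested. In limma 0 of 27 passed, while at an unadjusted p under 0.05 there were 2 higher and 1 lower. Their median log2 change was −0.05, with 22 below 0 and 17 above. Dnm1, the dynamin that pinches off endocytic vesicles at nerve terminals, was at 46.7 and 62.4 on the transgenic arrays, against 88.7 and 99.1 on the control arrays (−0.65 ± 0.28; adjusted p = 0.680). Pclo, a scaffold of the active zone, was at 34.5 and 28.5 in transgenic and 67.7 and 49.1 in control (−0.64 ± 0.34; adjusted p = 0.782). Rph3a, a partner of Rab3, was higher on both transgenic arrays, at 48.4 and 62.3 in transgenic against 18.3 and 46.4 in control (0.62 ± 0.33; adjusted p = 0.776). Syt4, a synaptotagmin, overlapped, at 21.4 and 80.2 in transgenic and 54.3 and 90.4 in control. The pair higher at an unadjusted p under 0.05, named after their values were seen, were Amph at 0.50 and Syngr1 at 0.46, the genes of the endocytic protein amphiphysin and of the vesicle protein synaptogyrin.

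Relatives of these genes that most cells use for membrane traffic were bright, with 16 of 18 above a mean signal of 150. In limma 0 of 18 passed, against 1 higher at an unadjusted p under 0.05, and the median was 0.04. Vamp8, a SNARE of secretory and late endosomal membranes, was at 1906 and 1920 on the transgenic arrays and 1521 and 1557 on the control arrays (0.31 ± 0.10; adjusted p = 0.508). Stx2 stood at 0.36, Syngr2 at −0.21 and Syt7 at −0.31.

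General markers of neurons had a median of −0.15 over 27 genes, 17 of them below 0. In limma 0 of the 22 tested passed, and 0 had an unadjusted p under 0.05. Chga at −0.54, Stmn2 at −0.51, Scg2 at −0.46 and Gap43 at 0.50 had the largest changes among the 22 tested. Chga and Scg2 encode proteins of dense-core vesicles, and Stmn2 and Gap43 proteins of growing axons. The arrays of Chga overlapped, at 61.1 and 4.97 in transgenic and 48.5 and 36.9 in control, so its change rested on 1 transgenic array. Stmn2 passed the filter through the control arrays, with a mean signal of 27.6 in transgenic and 47.1 in control. On the log2 scale of the filter, the same held for Chga. Under the filter, Elavl3 at −0.69 and Nefh at −0.66 stood further from 0. Nefl, a neurofilament gene, was at 66.6 and 67.5 in transgenic and 96.4 and 82.8 in control, a value named after it was seen.

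**Figure D4:**
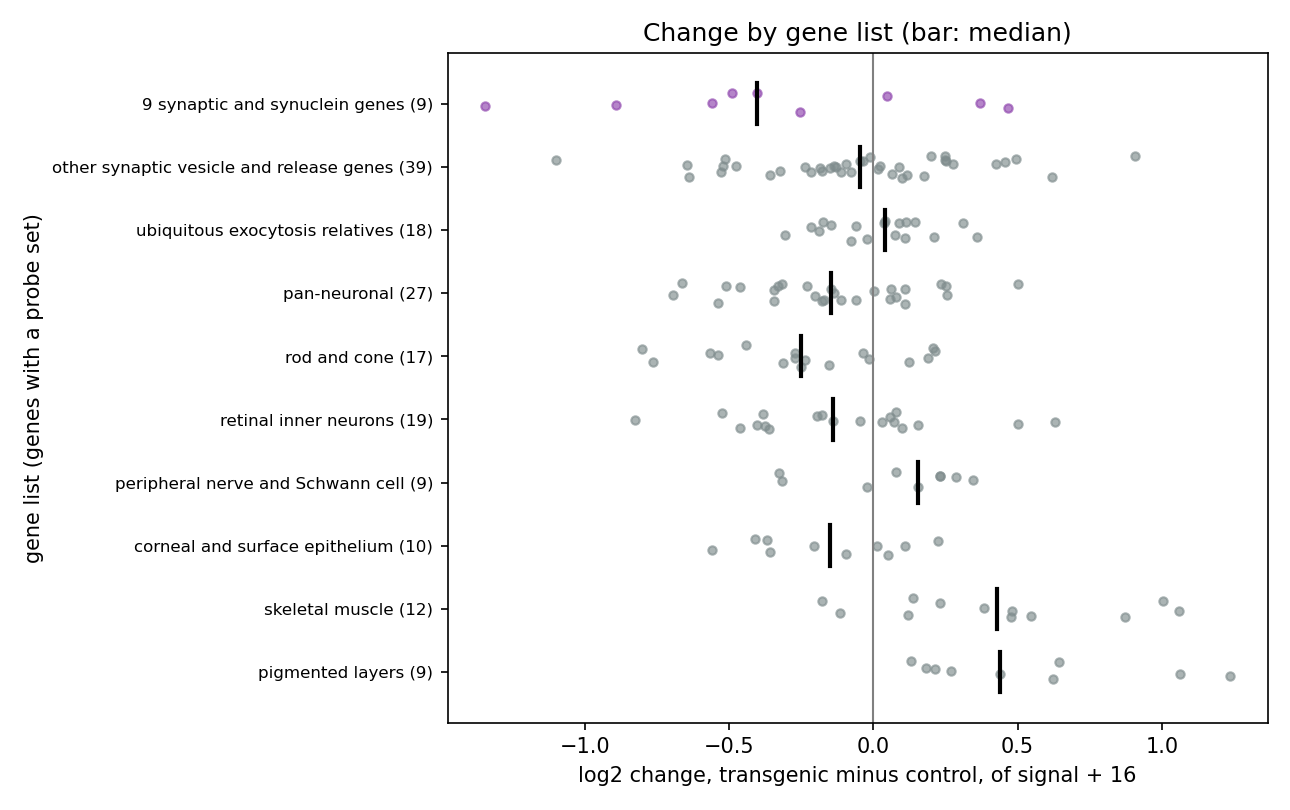
Log2 change (transgenic minus control) of each gene by its brightest probe set, as points, with the median of each list as a bar and the number of genes in brackets. The 9 synaptic and synuclein genes have a median of −0.40, other vesicle release genes −0.05, and the skeletal muscle and pigmented lists 0.43 and 0.44.

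Among markers of other cell types, genes of the muscle and pigmented lists passed the test and those of the other lists did not. The summed signal of 12 skeletal muscle genes was 22330 to 22388 on the transgenic arrays and 14178 to 14595 on the control arrays, and 3 of the 12 rose (Myl1, Mylpf and Mb). For 9 pigmented layer genes the sum was 36673 to 39621 in transgenic and 31737 to 31782 in control, and Rpe65 and Rgr rose. The 17 rod and cone genes summed to 632 to 693 in transgenic and 766 to 860 in control, with a median log2 change of −0.25 and 0 of 9 tested passing in limma, against 1 lower at an unadjusted p under 0.05. The 19 genes of inner retinal neurons summed to 5044 to 5227 in transgenic and 5002 to 5010 in control, with a median of −0.14. Trpm1, at a mean signal of 2001, weighed most in this sum. In the inner retinal list 0 of 13 passed, against 1 higher and 2 lower at an unadjusted p under 0.05. Gad1, which makes the transmitter GABA, stood at −0.82 ± 0.26 (adjusted p = 0.484). Gad2 stood at 0.06, and Pvalb went the other way at 0.50 ± 0.12 (adjusted p = 0.318). Whether the Pvalb signal came from inner retinal neurons was not tested. Peripheral nerve and Schwann cell genes summed to 2748 to 2936 in transgenic and 2637 to 2649 in control, with a median of 0.15 over 9 genes, and 0 of 8 passed in limma, as at an unadjusted p under 0.05. Pmp22, at a mean signal of 1435, weighed most in that sum. Of the 9 genes, 6 had a log2 change above 0 and 3 below, Sox10 at −0.32 and Cdh19 at −0.33 among the latter. The 10 corneal and surface epithelium genes summed to 52308 to 55505 in transgenic and 54051 to 54249 in control, and 0 passed, against 1 higher and 4 lower at an unadjusted p under 0.05. Neuroendocrine genes had a median of 0.07 over 8 genes and adipocyte genes 0.08 over 6. In limma 0 of 4 and 0 of 3 of these passed, against 1 higher in each at an unadjusted p under 0.05. The part of these cell types in the values of the synaptic genes was not tested.

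The pattern of the brightest Snap25 probe set over the 4 arrays was most like those of Pacsin3, Plekhm3 and Rrp8. Likeness was the root mean square difference of log2 values centred on each probe set's mean, which was 0.01 for Pacsin3, 0.02 for Plekhm3 and 0.02 for Rrp8. With 4 arrays and 22922 probe sets compared, 205 lay within 0.1. Among the synaptic genes the distance from Snap25 was 0.18 for Syt1, 0.23 for Vamp2 and 0.41 for Sncb. By this distance Sncb ranked 17988 of 22922, so most probe sets compared were nearer to Snap25 than Sncb was.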

How the data were processed

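The value table deposited by the authors holds linear signal intensity, 1 value per probe set and array. The labels name no software for it. Its 2% trimmed mean was 150 on every array, and no detection calls were used, so the number of arrays limits precision.

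The 64 array control probe sets were left out. Signals were transformed as log2(signal + 16) and control arrays averaged on that scale. The filter kept probe sets above the 40th percentile of mean log2 signal, and these went into limma 3.58.1 in R 4.3.3 (lmFit, eBayes with intensity trend, two-sided, Benjamini-Hochberg, threshold 0.05), with 10.3 prior degrees of freedom. Simulated data with known changes were used to check it. Adding 16 understates changes of dim probe sets.

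The genes and all lists were chosen with earlier results of these data known. Named genes are all probe sets of the 9 genes, for each list up to 4 of its tested genes, by size of change, and the 3 genes most like Snap25. Where the text names others outside this rule, their values were seen before they were chosen. Lists with little bearing on the synaptic genes have only their counts, sums or medians given. A gene stands by its brightest probe set. Alternatives were quantile normalization, median centring, pseudocounts of 1 and 64, no filter, the 60th percentile, 4 separate arrays with and without the replicate block, no trend, robust moderation and leaving out each array.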

Additional observations from a re-analysis of the deposited data

How the results depend on the processing

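No member probe set passed in limma in any fit except that with the replicate number as a block. All changes of the brightest Snap25, Syt1, Vamp2 and Sncb probe sets stayed below 0 in every setting. So did those of the brightest Syp and Syn1 probe sets, whose arrays overlapped. Where both transgenic arrays lay below both control arrays, leaving out an array could not turn the sign. Settings that alter only the filter or the test leave the change as it is, so the steady sign is no further evidence. With the replicate block 2 of the 11 tested passed in limma, Snap25 (adjusted p = 0.0105) and Sncb (adjusted p = 0.00046), as did 2 of the other vesicle release genes. But so did 1740 of all 27022 probe sets tested, against 21 of 27022 in the main fit. The replicate numbers were not taken to pair the samples, since the controls are technical replicates of 1 sample and the correlation of same-numbered deviations was 0.0955. Over the other fits with a test the adjusted p of Sncb ran from 0.0581 with 4 separate arrays, and 0.0951 after median centring, to 0.999 without the filter. Over all probe sets the count was 39 after quantile normalization, 56 after median centring, 135 with 4 separate arrays, 14 to 33 when 1 control array was left out, and 0 without the filter or without the trend, where 2181 and 1059 had an unadjusted p under 0.05. Leaving out a transgenic array left no test.

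The median of the 9 genes ran from −0.48 to −0.29 when 1 array was left out, and was −0.22 over all probe sets of a gene. That of the other vesicle release list was −0.0125 after quantile normalization, −0.0161 after median centring, −0.0512 and −0.0248 at pseudocounts of 1 and 64, and −0.11 to −0.0338 when 1 array was left out. With 1 array left out, the dimmer Vamp2 probe set ran from −0.61 to 0.19 and Syn2 from −0.14 to 0.23, so that signs turned for Vamp2 without transgenic replicate 1 and for Syn2 without control replicate 2 (−0.14) or transgenic replicate 2 (−0.11). Other probe sets of a gene had the opposite sign for Syt1 (0.22), Syp (0.48), Stx1a (−0.041) and Syn2 (−0.43 and −0.007). The causes were not tested. For 10 of the 21 probe sets the signal was too low to be tested.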
